A study of Carassius auratus with 9 samples.

Results

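Mitochondrial ribosomal protein genes were followed in the muscle of Hefang crucian carp (HCC, *Carassius auratus*). A gene was included where its description held "28S ribosomal protein" or "39S ribosomal protein", or named a ribosomal protein together with the word mitochondrial. The rule found 140 of the 76298 genes in the table, of which 53 were named for the small subunit and 87 for the large subunit. Fish of the LA group ate a commercial basal diet with no added methionine (Met) or lysine (Lys). The MA diet was the same feed with 1.7% Met and 3.4% Lys added, and the HA diet had 3.4% Met and 3.4% Lys added. How much of either the basal feed already held was not specified. All diets were fed for 8 weeks, and 3 muscle libraries were sequenced per diet, 9 in all. MA and LA thus differed in both amino acids, whose effects cannot be told apart, while HA and MA differed in Met alone. Age and sex of the fish, and whether a library came from 1 fish or several, were not given in the sources used here, so p-values measure only the spread between these libraries.

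Mitochondria carry their own ribosomes, which translate the few proteins encoded by mitochondrial DNA, all of them subunits of oxidative phosphorylation. The ribosomal RNA comes from mitochondrial DNA, but every mitochondrial ribosomal protein is encoded in the nucleus, made on cytosolic ribosomes and imported. The small subunit reads the messenger RNA and the large subunit joins the amino acids. In vertebrates many of the proteins have no bacterial counterpart, and white muscle, which works mostly without oxygen, holds few mitochondria. Goldfish and crucian carp carry a duplicated genome, so many proteins are encoded by more than 1 gene.

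The libraries held 13962770 to 17177610 counts each, and genes that mark fast muscle took 35.5% to 40.7% of them. Libraries LA1 and HA2 were the closest pair although their diets differed: over the 118 genes tested, their median absolute log2 ratio of normalised counts was 0.206, against 0.295 to 0.611 for every other pair of libraries. Library 3 of a diet also lay between libraries 1 and 2 at most genes where those 2 differed by at least 1 on the log2 scale. It did so at 34 of 38 such members in LA, 18 of 22 in MA and 26 of 32 in HA, and at 86.7% to 89.4% of such genes among all genes tested. Picking genes where libraries 1 and 2 lie far apart itself favours such a place for library 3, and no expected share was computed. In the study's mapping summary, LA1 and HA2 had the lowest shares of mapped reads, with MA2 next and close to them. Within each diet, the mapped share of library 3 also lay between those of libraries 1 and 2. What lay behind either pattern was not tested, and values without LA1 and HA2 are given where a call turned on them.

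The members were expressed at a lower level than nuclear subunits of oxidative phosphorylation and cytosolic ribosomal proteins, but not below the typical gene tested in FPKM. Of the 140 genes, 127 to 138 had at least 1 count in a given library, and together they held 0.0387% to 0.0519% of all counts. The filter on low counts was passed by 118 members, 47 of the small and 71 of the large subunit, with a median mean count of 37.3 per library. Over all genes tested that median was 41.3. The other 22 had 2 to 73 counts over all 9 libraries. The median of the mean FPKM (the count divided by gene length and library total, a level per length) was 2.22 over the 118, against 0.982 over all 23946 genes tested. It was 24.6 over 170 nuclear subunits of oxidative phosphorylation and 342 over 204 cytosolic ribosomal proteins. The 2 subunits lay close together, at a median of 2.35 FPKM for the small and 2.22 FPKM for the large subunit.

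Levels per length differed widely among members. The 5 highest genes all carried small-subunit names: S18c (LOC113038756) at a mean of 17.9 FPKM, both copies of S36 at 17.7 (LOC113069859) and 15.6 (LOC113107090) FPKM, S15 (LOC113115992) at 12.5 FPKM and S35 (LOC113043020) at 11.4 FPKM. S36 is also known as KGD4, a subunit of the 2-oxoglutarate dehydrogenase complex in yeast and mammals, and its place in the ribosome is doubtful. S15 binds the central part of the small-subunit RNA in bacteria, and S18c is the form of S18 closest to the bacterial one. These 5 are neighbours in level: their library values in FPKM overlapped, with SDs within a diet of 0.686 to 9.55 FPKM. At the other end, the 3 lowest tested genes were a copy of S2 (LOC113064368) at 0.405 FPKM, S27 (LOC113106883) at 0.414 FPKM and L44 (LOC113058630) at 0.442 FPKM. L20, which binds the large ribosomal RNA early in assembly in bacteria, was nearly absent: its 2 genes, mrpl20 and LOC113088279, had 2 counts each over all 9 libraries.

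**Figure D1:**
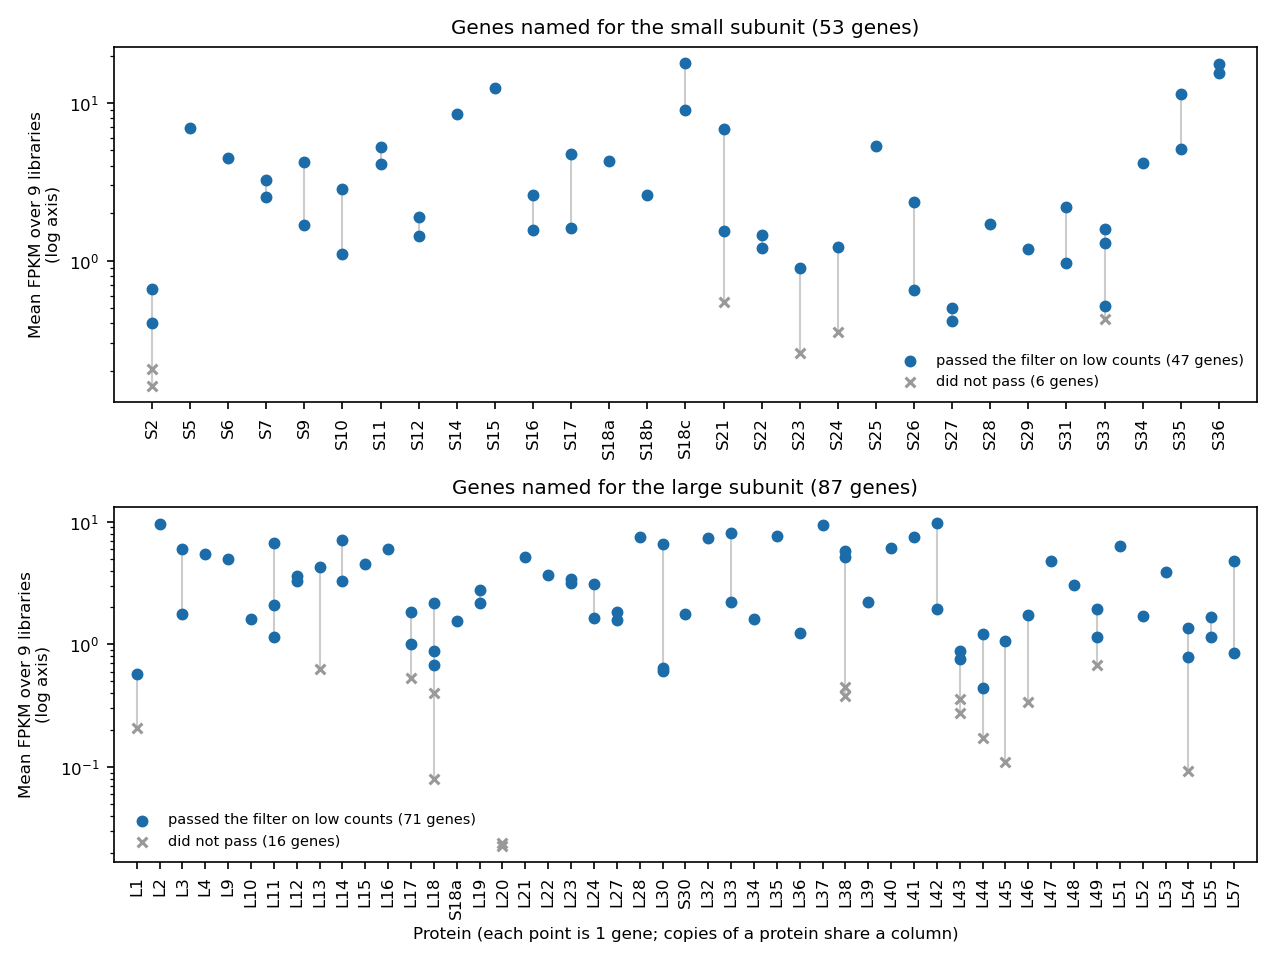
Mean FPKM over the 9 libraries (log axis) of the 140 genes, by protein, with small-subunit names above and large-subunit names below; blue points are the 118 genes that passed the filter on low counts, grey crosses the 22 that did not, and grey lines join copies of a protein. S18c, S36, S15 and S35 stand highest, between 11.4 and 17.9 FPKM, and the 2 copies of L20 lowest.

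In FPKM, the summed level of the set was higher in the MA than in the LA libraries, and its mean was close in HA and MA. Summed over the 140 genes, FPKM came to 432, 477 and 460 in the MA libraries and to 404, 396 and 394 in the LA libraries, which did not overlap. In the HA libraries the sum was 521, 410 and 471, so HA2 lay close to LA1 and HA1 was highest of all 9. The mean sum was 467 ± 55.6 FPKM in HA and 456 ± 22.7 FPKM in MA (SD, n = 3 each). The small subunit gave 200, 210 and 199 FPKM in MA libraries, against 164, 185 and 175 FPKM in LA libraries. The large subunit gave 232, 267 and 260 FPKM in MA libraries and 240, 211 and 219 FPKM in LA libraries, so that MA1 lay below LA1. Mitochondrial translation factors also did not overlap, at 41.3, 41.9 and 40.3 FPKM in MA libraries and 32.8, 35.3 and 33.4 FPKM in LA libraries. The difference was thus not particular to the set. Sums of nuclear oxidative phosphorylation subunits and of cytosolic ribosomal proteins overlapped between these diets. FPKM is scaled by the total count. That scaling moved the median log2 fold change of all genes to 0.08 in MA against LA and 0.14 in HA against LA. After TMM scaling, which sets most genes level, the median log2 CPM (counts scaled to a common library total) of the 118 genes, each minus its own mean, was 0.07, −0.12 and −0.06 in LA, 0.15, 0.09 and 0.08 in MA, and 0.00, 0.02 and 0.03 in HA. On that scale every HA library lay below every MA library.

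Cytosolic ribosomal proteins were spread more widely over the libraries on the same scale. Their median log2 CPM minus the gene mean was between −0.26 and 0.40, highest in LA1 (0.40) and HA2 (0.38), whereas that of the mitochondrial set stayed between −0.12 and 0.15. Nuclear subunits of oxidative phosphorylation lay between −0.16 and 0.16.

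**Figure D2:**
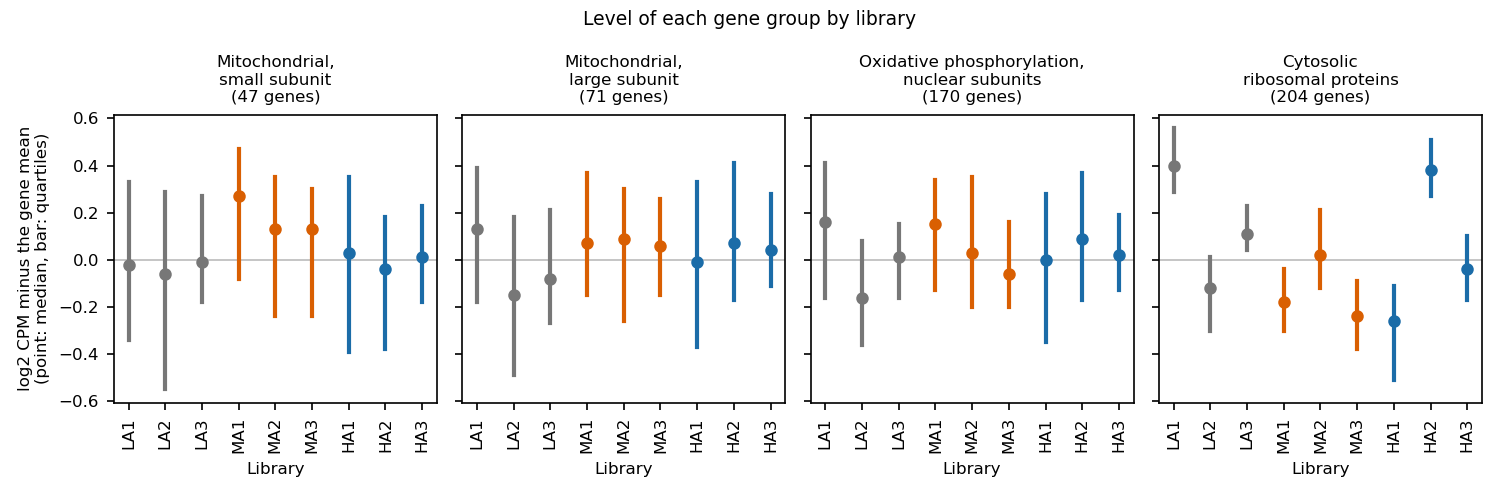
Log2 CPM minus the gene mean in each library (points are medians over genes, bars run between the quartiles) for both mitochondrial ribosomal subunits, nuclear subunits of oxidative phosphorylation and cytosolic ribosomal proteins. The small subunit is highest in MA1 (0.27), and the cytosolic set separates LA1 and HA2 from the other libraries.

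MA was compared with LA to see what moderate Met together with Lys did to these genes. No member passed an adjusted p of 0.05 in edgeR, where 0.0835% of all tested genes did. The median log2 fold change of the members was 0.10, against −0.03 over all genes tested, with 68 of 118 above 0. In all, 10 were past an unadjusted p of 0.05: 9 of 118 were higher in MA, where 5.3% of all genes were, and 1 was lower, where 6.18% were. The 9 include the L57 copy LOC113117531, described below. It had no count in LA and passed the filter only through MA and HA libraries, so it could not have been lower. By library values, 18 of 118 members lay higher in every MA than in every LA library (8.27% of all genes) and 7 lay lower (8.43% of all genes). DESeq2 called 2 members at an adjusted p of 0.05 (1.84% of all genes), and limma-trend on log2(FPKM + 1) called 0 (0.113% of all genes). Without LA1 the median was 0.23, and without LA2, MA1 or MA2 it came to 0.06, 0.05 and 0.06. Scaling to total counts gave 81 of 118 above 0 and a median of 0.22, but it moved the median of all genes to 0.08 as well, so that the members lay 0.14 above all genes there and 0.13 above them with TMM.

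The smallest p belonged to S7 (LOC113067805), whose bacterial counterpart starts the assembly of the head of the small subunit. The gene lies on linkage group LG28B, at 4424677 to 4427239 on the minus strand of assembly ASM336829v1. It had 4.86, 4.28 and 4.96 CPM in the MA libraries, against 1.85, 1.25 and 1.94 CPM in the LA libraries. The groups did not overlap, and the log2 fold change was 1.48 ± 0.30 (SE, n = 3 each, adjusted p = 0.131). DESeq2 gave an adjusted p of 0.00579. Over the 19 alternatives fitted to single genes, the adjusted p ranged from 0.00579 to 0.510. It was 0.0346 without LA1 and HA2 and 0.0355 with no filter on low counts. Each of those fits called 542 genes of the whole table in MA against LA. Leaving out LA1 and HA2 kept MA2, whose mapped share was close to theirs, so diet and mapped share cannot be told apart in that fit. The other S7 gene (LOC113067806, at 4032273 to 4034508 of the same linkage group) had 2.69, 1.69 and 2.36 CPM in MA libraries and 5.05, 1.38 and 2.65 CPM in LA libraries. Its values overlapped, with a log2 fold change of −0.43 ± 0.42 (adjusted p = 0.757).

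A copy of S2 came next (LOC113095287, on an unplaced scaffold); S2 sits between the head and body of the small subunit in bacteria. It had 1.28, 1.62 and 1.80 CPM in MA libraries, against 0.355, 0.461 and 0.359 CPM in LA libraries. These values came from 20 to 29 counts per library in MA and 5 to 7 in LA, and they did not overlap. The log2 fold change was 1.98 ± 0.43 (adjusted p = 0.150), with an adjusted p of 0.0303 in DESeq2. With the counts of its 4 copies summed before the fit, S2 overlapped between the diets (0.62 ± 0.55). mrps28 encodes S28, a relative of part of the RNA-binding bacterial protein S1. Its values were 2.17, 2.27 and 2.17 CPM in MA libraries and 0.995, 0.790 and 1.08 CPM in LA libraries, with a log2 fold change of 1.20 ± 0.32 (adjusted p = 0.224). This gene was single, and its MA libraries were all above its LA libraries.

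A copy of S11 (LOC113105568), a protein of the platform that holds the messenger RNA, had 12.3, 9.47 and 12.8 CPM in MA libraries, against 4.62, 8.23 and 7.82 CPM in LA libraries (log2 fold change 0.74 ± 0.26, adjusted p = 0.313). S36 (LOC113069859) had 16.3, 14.3 and 15.4 CPM in MA libraries, against 9.17, 11.7 and 9.11 CPM in LA libraries (0.62 ± 0.26, adjusted p = 0.400). L14 (LOC113092343), which lies on the large-subunit face that meets the small subunit, had 6.27, 4.87 and 6.58 CPM in MA libraries and 3.27, 4.54 and 4.45 CPM in LA libraries (0.53 ± 0.22, adjusted p = 0.401). All 3 genes had every MA library above every LA library. A copy of L38 (LOC113111367) went the other way. L38 belongs to the central protuberance of the large subunit in mammals. This copy had 3.39, 4.54 and 4.16 CPM in MA libraries, against 14.8, 5.20 and 9.11 CPM in LA libraries (−1.26 ± 0.44, adjusted p = 0.314). Summed over their copies, S11, S36, L14 and L38 all overlapped between these diets. Their log2 fold changes were then 0.46 ± 0.25, 0.15 ± 0.19, 0.22 ± 0.26 and −0.14 ± 0.34.

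**Figure D3:**
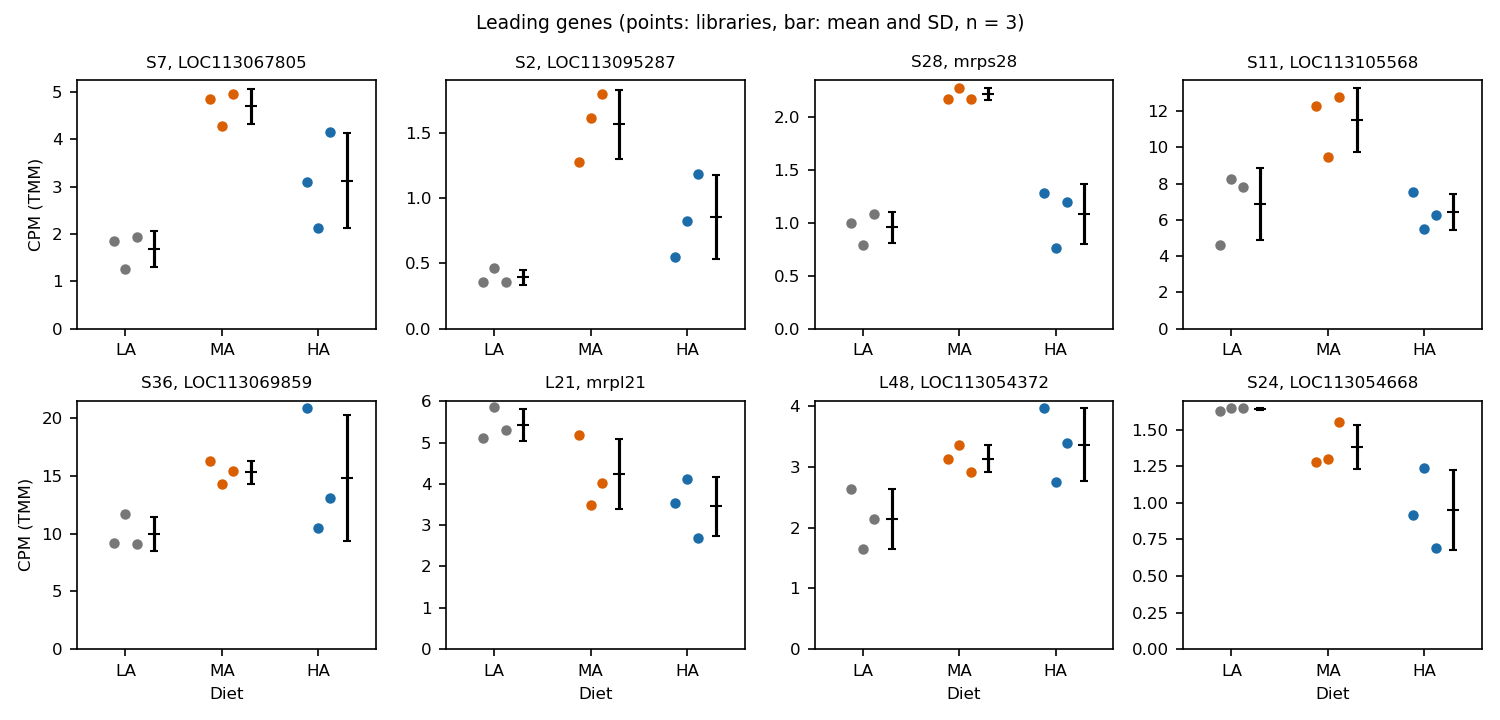
CPM (TMM-scaled) of 8 leading genes by diet; points are the 3 libraries of a diet in order of their number, and the black mark with its bar is their mean and SD. S7, S2, S28, S11 and S36 sit higher in MA than in LA without overlap, and mrpl21 and S24 sit lower in HA than in LA.

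Against LA, HA showed smaller differences still. Both edgeR and limma-trend called 0 members and 0.0% of all genes, and DESeq2 called 0 members and 0.205% of all genes. The median log2 fold change of the members was 0.05, against −0.01 over all genes, with 65 of 118 above 0. An unadjusted p under 0.05 was found for 6 members, 4 of them higher in HA (2.74% of all genes) and 2 lower (3.48% of all genes). The 4 include the L57 copy LOC113117531, described below. It had no count in LA and passed the filter only through MA and HA libraries, so it could not have been lower. With its copies summed, L57 was at −0.19 ± 0.30 in HA against LA. Without overlap, 6 members were higher in HA (5.16% of all genes) and 7 lower (4.97% of all genes). Without LA1 the median was 0.14 and without HA1 it was 0.10, and scaling to total counts moved it to 0.21 while moving the median of all genes to 0.14.

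S7 (LOC113067805) again had the smallest p, at 3.11, 2.13 and 4.15 CPM in HA libraries, against 1.85, 1.25 and 1.94 CPM in LA libraries. The HA libraries were all above the LA libraries, with a log2 fold change of 0.90 ± 0.30 (adjusted p = 0.709). The S2 copy LOC113095287 had 0.549, 0.826 and 1.19 CPM in HA libraries and did not overlap its LA libraries either (1.11 ± 0.44, adjusted p = 0.745). L48 (LOC113054372), another protein of the central protuberance, had 3.97, 2.75 and 3.39 CPM in HA libraries, against 2.63, 1.65 and 2.15 CPM in LA libraries (0.66 ± 0.26, adjusted p = 0.752). S36 (LOC113069859) was spread widely, at 20.9, 10.5 and 13.1 CPM in HA libraries, and HA2 lay among its LA libraries (0.57 ± 0.26, adjusted p = 0.802). Another L38 copy (LOC113111451) had 12.6, 6.68 and 10.5 CPM in HA libraries, against 6.04, 5.27 and 4.23 CPM in LA libraries, without overlap (0.94 ± 0.49, adjusted p = 0.855). Summed over copies, HA against LA gave 0.52 ± 0.31 for S7, 0.85 ± 0.55 for S2, 0.31 ± 0.19 for S36 and 0.35 ± 0.34 for L38.

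Lower values in HA were those of mrpl21 and S24. mrpl21 encodes L21, a protein of the large-subunit body, and had 3.54, 4.13 and 2.70 CPM in HA libraries, against 5.12, 5.86 and 5.31 CPM in LA libraries (−0.65 ± 0.24, adjusted p = 0.725). S24 (LOC113054668) is the mitochondrial form of bacterial S3, which lines the entry of the messenger RNA. It had 0.916, 1.24 and 0.691 CPM in HA libraries and 1.63, 1.65 and 1.65 CPM in LA libraries (−0.79 ± 0.33, adjusted p = 0.778). In both genes every HA library was below every LA library.

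HA and MA differed in Met alone. Again edgeR called 0 members (0.0543% of all genes), DESeq2 0 (1.24%) and limma-trend 0 (0.071%). The median log2 fold change was −0.04, against 0.02 over all genes, with 55 of 118 above 0. Without overlap, 9 members were higher in HA (9.2% of all genes) and 18 lower (8.55% of all genes), and at an unadjusted p under 0.05 there were 3 higher (5.2%) and 7 lower (4.84%). The median lay on the other side of 0 with no filter on low counts (0.02) and with total counts (0.01, where that of all genes was 0.06).

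The S11 copy LOC113105568 led this comparison, at 7.51, 5.51 and 6.28 CPM in HA libraries, against 12.3, 9.47 and 12.8 CPM in MA libraries (log2 fold change −0.84 ± 0.26, adjusted p = 0.334). mrps28 followed, at 1.28, 0.757 and 1.19 CPM in HA libraries and 2.17, 2.27 and 2.17 CPM in MA libraries (−1.02 ± 0.32, adjusted p = 0.334). Neither gene overlapped between the diets. L19 (LOC113062938), which bridges the subunits in bacteria, had 1.77, 2.48 and 2.45 CPM in HA libraries, against 4.99, 3.50 and 3.16 CPM in MA libraries (−0.80 ± 0.31, adjusted p = 0.425). L11 (LOC113114215), at the base of the stalk where elongation factors bind, had 0.733, 0.826 and 0.314 CPM in HA libraries and 1.28, 1.56 and 1.12 CPM in MA libraries (−1.07 ± 0.43, adjusted p = 0.438). Both were lower in every HA library than in any MA library. Summed over copies, S11 was at −0.38 ± 0.25, L19 at −0.64 ± 0.23 and L11 at 0.5 ± 0.29 in HA against MA.

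The 2 copies of S18c went opposite ways. LOC113064199 had 5.31, 3.58 and 5.47 CPM in HA libraries, against 6.33, 9.47 and 7.75 CPM in MA libraries (−0.71 ± 0.28, adjusted p = 0.434). LOC113038756, the highest member by FPKM, had 14.5, 12.4 and 12.2 CPM in HA libraries, against 11.3, 6.29 and 9.18 CPM in MA libraries (0.55 ± 0.23, adjusted p = 0.465). The HA libraries lay below the MA libraries for the first and above them for the second. Summed, the 2 copies gave a log2 fold change of 0.09 ± 0.18 in HA against MA. L38 (LOC113111367) had 4.40, 12.9 and 8.10 CPM in HA libraries and 3.39, 4.54 and 4.16 CPM in MA libraries, which overlapped (1.07 ± 0.44, adjusted p = 0.450).

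Tested among the 3 diets together, no member passed in edgeR (0.0793% of all genes did) or limma-trend (0.0835%), with 5 of 118 members past an unadjusted p of 0.05 in edgeR, where 10.8% of all genes were. DESeq2 called 1, S7 (LOC113067805), where it called 2.27% of all genes.

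**Figure D4:**
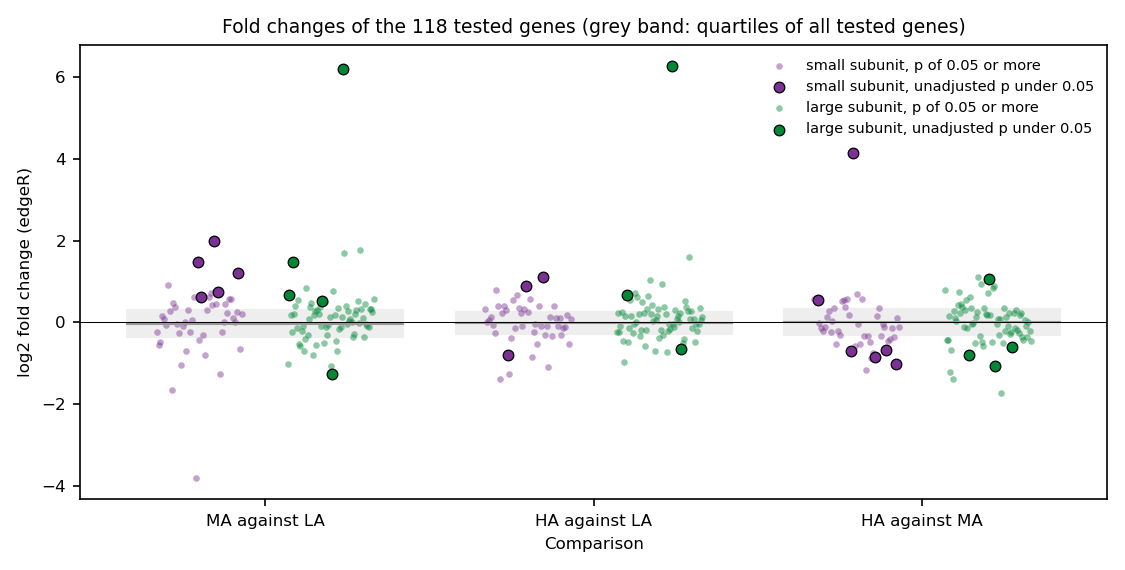
Log2 fold changes of the 118 tested genes in the 3 comparisons, small subunit in purple and large in green; outlined points have an unadjusted p under 0.05, and the grey band spans the quartiles of all tested genes. Most members lie within 1 of 0, 104, 111 and 109 of 118 in the order drawn, and the points above 6 belong to an L57 copy with no count in LA, whose fitted value is no measure of size.

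The 140 genes encoded 77 proteins by name: 32 had 1 gene, 33 had 2, 7 had 3, 4 had 4 and 1 (L18) had 5. In 46 pairs of copies both members were tested, and in 21 of them the same copy had the higher FPKM in all 9 libraries. Among pairs with at least 10 counts in each copy, the 3 most unequal were all of L38, where LOC113111451 and LOC113111367 averaged 5.79 and 5.18 FPKM, and LOC113081095 and LOC113055852 averaged 0.377 and 0.452 FPKM. S21 came next, with LOC113120003 at 6.88 and LOC113061979 at 0.548 FPKM. How the authors' counting placed reads that match both copies is not given in the sources used here, so the split between copies is uncertain, more so than their sum.

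Several copies had counts in some libraries and few or none in others of the same diet. L57 (ribosomal protein 63), found only in mitochondria, had a copy (LOC113117531, chromosome 17) with 20, 0 and 8 counts in MA libraries, 15, 0 and 15 in HA libraries and 0 in each LA library. Set against 3 counts over the LA group, its observed counts pooled over a diet came to 8.55-fold in MA and 9.23-fold in HA (adjusted p in edgeR 0.387 and 0.752). These values allow for counting error in LA only. They do not cover that in MA and HA or the spread between libraries, and MA2 and HA2 had no counts. The other L57 copy (LOC113070400) was low where the first had counts, at 1.09, 2.85 and 2.30 CPM in MA libraries, 0.672, 3.3 and 2.2 CPM in HA libraries and 2.77, 3.03 and 3.37 CPM in LA libraries. Added together they gave 2.37, 2.85 and 2.79 CPM in MA libraries and 2.77, 3.03 and 3.37 CPM in LA libraries, a log2 fold change of −0.19 ± 0.30.

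S10, a protein of the small-subunit head, behaved alike. One copy (LOC113047878) had 2.49, 2.79 and 2.54 CPM in MA libraries, against 2.49, 0.527 and 1.15 CPM in LA libraries (0.91 ± 0.45, adjusted p = 0.475). The other (LOC113048561) had 1.09, 0.0649 and 0.248 CPM in MA libraries, against 0.924, 2.04 and 1.51 CPM in LA libraries (−1.66 ± 0.85, adjusted p = 0.494). Their sums were 3.58, 2.85 and 2.79 CPM in MA libraries and 3.41, 2.57 and 2.65 CPM in LA libraries (0.10 ± 0.25). Both copies lie on chromosome 29.

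The low S2 copy (LOC113064368, chromosome 46) had 1, 1 and 0 counts in MA libraries, 0, 20 and 11 in LA libraries and 34, 0 and 9 in HA libraries. Its log2 fold change was −3.82 ± 1.71 in MA against LA (adjusted p = 0.435) and 4.14 ± 1.68 in HA against MA (adjusted p = 0.441), and LA1 and HA2 were both at 0. Without these libraries the values were −4.39 (adjusted p = 0.0547) and 4.72 (adjusted p = 0.0864). A copy of L3, which reaches toward the peptidyl transferase centre, had the widest range of all members (LOC113120044, 5.39 on the log2 CPM scale). It had 84, 57 and 77 counts in MA libraries, 41, 1 and 24 in HA libraries and 0, 41 and 21 in LA libraries, so the 2 libraries nearly without it were again LA1 and HA2. S16 (LOC113055649), which helps to build the body of the small subunit in bacteria, varied by 4.29 on that scale, with 25, 0 and 15 counts in MA libraries and 11, 37 and 28 in LA libraries.

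When the copies of each protein were summed before the fit, 76 proteins were tested and edgeR called 0 in each comparison, with 4, 3 and 4 past an unadjusted p of 0.05 in MA against LA, HA against LA and HA against MA, where 11.5%, 6.22% and 10% of all genes were. L3 then had the smallest p in MA against LA: 15.1, 12.8 and 14.6 CPM in MA libraries, against 8.74, 9.15 and 8.53 CPM in LA libraries (log2 fold change 0.69 ± 0.17, adjusted p = 0.202). Its HA libraries had 11, 9.5 and 9.36 CPM and lay between the other diets. S7 summed to 7.55, 5.97 and 7.32 CPM in MA libraries and 6.89, 2.63 and 4.59 CPM in LA libraries, which overlapped (0.56 ± 0.31, adjusted p = 0.544). L54, a protein without a bacterial counterpart, summed to 1.09, 1.17 and 1.43 CPM in MA libraries, against 1.92, 2.5 and 2.44 CPM in LA libraries (−0.89 ± 0.29, adjusted p = 0.280). Over the 38 proteins with at least 2 tested copies, the SD of log2 CPM over the 9 libraries had a median of 0.33 for the sums and 0.50 for the 80 single copies, against 0.35 for the 32 proteins with 1 gene. Sums rest on more counts, which narrows their counting error as well.

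**Figure D5:**
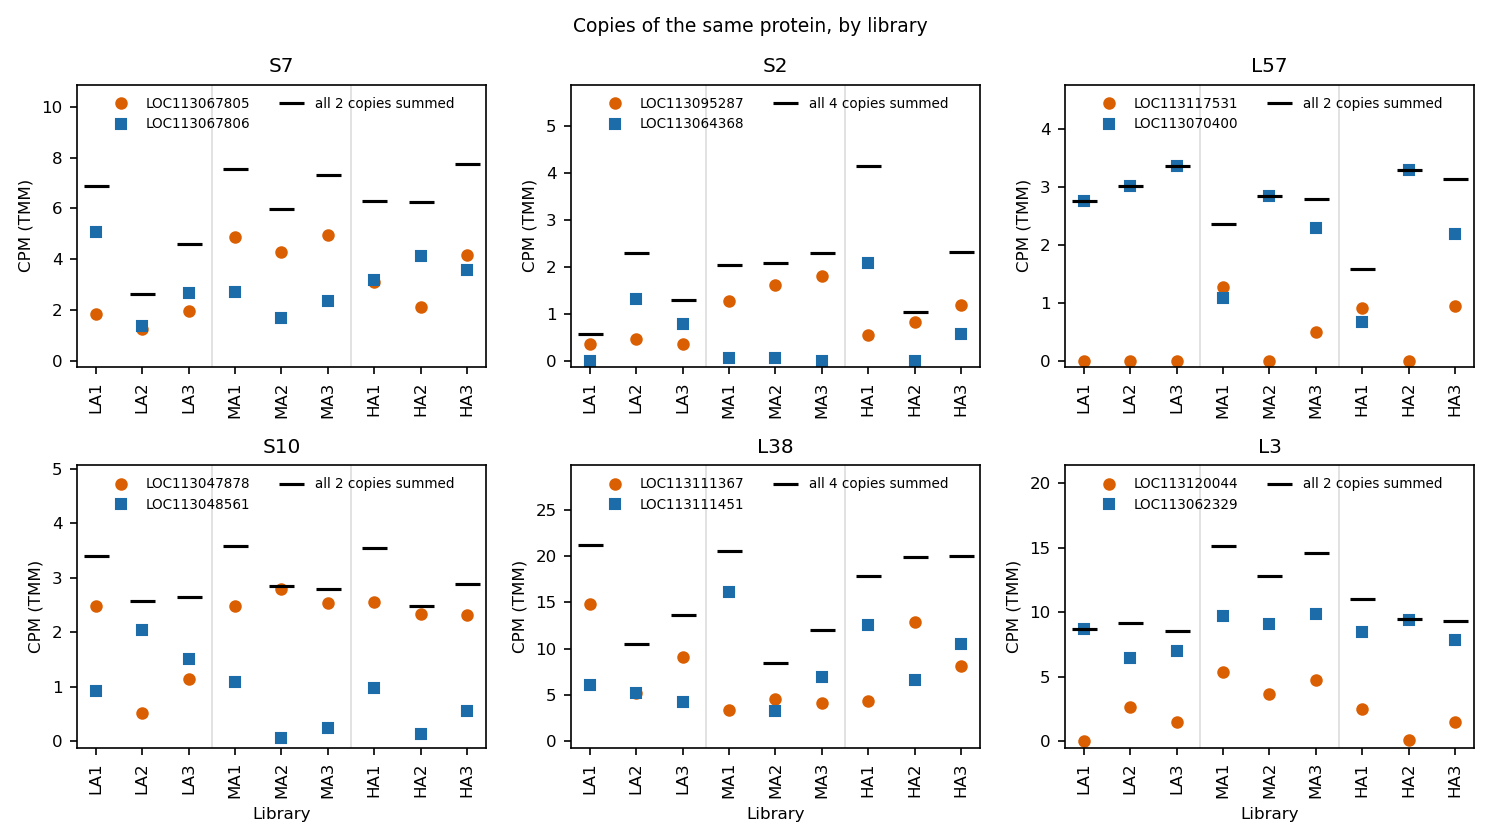
CPM (TMM-scaled) in each library of 2 copies of S7, S2, L57, S10, L38 and L3 (circles and squares), with the sum over all copies of the protein as a black dash. In L57 and S10 one copy is low where the other is high and the sums vary less, and the L3 copy LOC113120044 is near 0 in LA1 and HA2.

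The members were scattered over the genome, with 116 genes on 43 chromosomes and linkage groups, at most 6 on any of them, and 24 on unplaced scaffolds. S11 and L46 lay side by side on opposite strands with their starts facing, once on chromosome 7 (LOC113105567 for L46 at 4297232 to 4299627, minus strand, and LOC113105568 for S11 at 4299854 to 4316951, plus strand) and once on chromosome 32 (LOC113051983 for S11 at 27250529 to 27257400, minus strand, and LOC113051984 for L46 at 27257636 to 27259442, plus strand). The gaps were 226 and 235 bases. L46 on chromosome 7 had 3.39, 1.75 and 2.36 CPM in MA libraries, against 0.640, 2.76 and 1.86 CPM in LA libraries (log2 fold change 0.50 ± 0.53), overlapping where its neighbour S11 did not. On chromosome 32, S11 had a log2 fold change of −0.03 ± 0.30 and L46 held only 1 to 11 counts per library.

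Other genes of mitochondrial gene expression were called in no comparison by edgeR. Of all genes, 11.5%, 6.22% and 10% passed an unadjusted p of 0.05 in MA against LA, HA against LA and HA against MA. Among 21 tested translation factors of 26, 3 were past an unadjusted p of 0.05 in MA against LA, all higher, and their median log2 fold change was 0.19, with 0.06 in HA against LA and 0.09 in HA against MA. They were both genes for OXA1L, which inserts new proteins into the inner membrane, and release factor 1-like. OXA1L LOC113105588 had 9.08, 4.93 and 8.31 CPM in MA libraries, against 3.48, 5.13 and 4.37 CPM in LA libraries (0.78 ± 0.28, adjusted p = 0.325). OXA1L LOC113052254 had 2.37, 1.69 and 2.98 CPM in MA libraries and 1.49, 0.856 and 1.15 CPM in LA libraries (1.01 ± 0.37, adjusted p = 0.333), and release factor 1-like (LOC113078510) was at 1.96 ± 0.77 (adjusted p = 0.367). In HA against LA, 2 factors were past it, release factor 1-like at 2.22 ± 0.76 (adjusted p = 0.709) and ribosome-recycling factor (LOC113054085) at 1.18 ± 0.44 (adjusted p = 0.725), and in HA against MA 1 was, OXA1L LOC113105588 at −0.78 ± 0.28 (adjusted p = 0.388).

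Of 21 tested genes for ribosome assembly and RNA modification, 2, 1 and 1 passed an unadjusted p of 0.05, all lower. The order is MA against LA, HA against LA and HA against MA, where 11.5%, 6.22% and 10% of all genes passed. The median log2 fold changes of the list were −0.12, −0.21 and 0.05. GTP-binding protein 10-like (LOC113059116), a GTPase that matures the large subunit in humans, had 0.640, 0.324 and 0.496 CPM in MA libraries and 1.21, 1.32 and 1.36 CPM in LA libraries (−1.40 ± 0.43, adjusted p = 0.261). The helicase dhx30 was at −1.16 ± 0.47 in the same comparison (adjusted p = 0.389), and GTP-binding protein 10 (LOC113116739) at −0.88 ± 0.33 in HA against LA (adjusted p = 0.725). Among 20 genes for the expression of mitochondrial DNA, 1, 0 and 2 were past it, with medians of −0.06, −0.03 and 0.00. The 2 SLIRP genes, whose protein steadies mitochondrial messenger RNA, went opposite ways in HA against MA, at 1.88 ± 0.59 (LOC113094539, adjusted p = 0.334) and −1.04 ± 0.30 (LOC113071034, adjusted p = 0.304). The first was at −1.66 ± 0.59 in MA against LA (adjusted p = 0.325). Of 20 regulators of mitochondrial biogenesis, 1, 3 and 1 were past it, and the median log2 fold changes were −0.23, −0.12 and 0.04, with 5 of 20 above 0 in MA against LA. The gene in MA against LA was LOC113057868, a relative of PGC-1beta, at 0.93 ± 0.33 (adjusted p = 0.328), and the gene in HA against MA was ppargc1b (PGC-1beta) at −0.51 ± 0.22 (adjusted p = 0.481). In HA against LA, ppargc1b was at −0.60 ± 0.22 (adjusted p = 0.717), LOC113057868 at 0.75 ± 0.33 (adjusted p = 0.797) and GA-binding protein alpha (LOC113108134), which drives many nuclear genes for mitochondria, at −0.62 ± 0.24 (adjusted p = 0.729). The 170 nuclear subunits of oxidative phosphorylation had median log2 fold changes of 0.03, 0.03 and −0.02 in MA against LA, HA against LA and HA against MA. Of them, edgeR called 1, 0 and 1 (0.0835%, 0.0% and 0.0543% of all genes). The 204 cytosolic ribosomal proteins had medians of −0.29, −0.12 and 0.18, and edgeR called 0 in each comparison. Without overlap, 34 of them were lower in MA than in LA (8.43% of all genes) and 2 higher (8.27%).

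Markers of other cells differed between the same libraries. Of all genes, 5.3% were higher and 6.18% lower in MA than in LA at an unadjusted p under 0.05. All 19 nerve and Schwann cell markers were detected in every library, and their share of counts was 0.0352% to 0.0546% in MA libraries, 0.0275% to 0.0295% in HA libraries and 0.0231% to 0.0237% in LA libraries, with 10 of 18 tested higher in MA at an unadjusted p under 0.05. Genes of slow or cardiac-type fibres, of which 10 to 32 of 35 were detected and 1 (LOC113056775, a slow troponin I) was at 0 throughout, held 0.00512% to 0.0297% in MA, 0.00397% to 0.00993% in HA and 0.00287% to 0.00354% in LA. Of 5 tested, 3 were higher and 0 lower in MA than in LA at an unadjusted p under 0.05. The other 30 did not pass the filter on low counts. Slow troponin C (LOC113094721) had 8, 846 and 490 counts in MA libraries and 8, 4 and 6 in LA libraries, so MA2 and MA3 stood out. A gene with so few LA counts could pass the filter only through other libraries, which left little room for a lower value in MA. Leukocyte markers held 0.0261% to 0.0309% in MA, 0.0199% to 0.0368% in HA and 0.0208% to 0.0511% in LA, with 17 to 24 of 31 detected and a lysozyme C gene (LOC113108669) at 0. Of 14 leukocyte markers tested, 5 were lower and 0 higher in MA than in LA at an unadjusted p under 0.05. In HA against LA, 6 were lower and 1 higher (3.48% and 2.74% of all genes). Hemoglobin genes held 0.0744% to 0.0889% in MA, 0.0485% to 0.12% in HA and 0.0487% to 0.0709% in LA, with 11 of 24 at 0 throughout and none of 6 tested past an unadjusted p of 0.05 in MA against LA. Adipocyte markers, of which 3 to 5 of 7 were detected and 1 (LOC113059624) was at 0 throughout, held 0.00356% to 0.00576% in MA, 0.00329% to 0.00551% in HA and 0.0027% to 0.00345% in LA. All 4 tested had a log2 fold change above 0 in MA against LA, with a median of 0.81, and 2 were past an unadjusted p of 0.05. Of 54 fast muscle markers tested, 5 were higher and 9 lower in MA than in LA at that p, and edgeR called 3 (0.0835% of all genes). In HA against LA, 3 were higher and 7 lower, and edgeR called 0. In HA against MA, 2 were higher and 4 lower, and edgeR called 3 (0.0543% of all genes). Of 18 nerve and Schwann cell markers, 0 were higher and 11 lower in HA than in MA (5.2% and 4.84% of all genes). In bulk muscle, fewer cells of a type and less RNA per cell cannot be told apart, and the part of these cells in the values above was not tested.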

How the data were processed

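Muscle RNA was enriched for poly(A) and sequenced in paired ends on an Illumina instrument, with 3 libraries per diet that the study calls biological replicates. The authors deposited a table of whole-number counts and FPKM values per gene and library on the goldfish assembly ASM336829v1. The deposited FPKM equals the count divided by listed gene length and by the library total (largest relative deviation 3.6e-14). Aligner, counting program, strand setting and treatment of reads with several places were not given in the sources used here; DESeq2 is named in the submitters' processing notes without its role. Columns coded HA, HB and HC were read as the LA, MA and HA diets, because the sample descriptions give these codes. The columns coded HA thus belong to LA, although HA also stands in the titles of the HA diet, and the direction of every LA and HA value rests on this reading. No per-sample column was left out.

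Genes were kept by filterByExpr (23946 genes), scaled by TMM (factors 0.890 to 1.15) and fitted with the quasi-likelihood test of edgeR 4.0.16 in R 4.3.3, with 1 coefficient per diet over all 9 libraries and 6 residual degrees of freedom (common dispersion 0.135). P-values were adjusted over all genes by Benjamini-Hochberg, and a gene was called at 0.05. SE is the absolute log2 fold change divided by the square root of F. CPM was computed on TMM-scaled totals, with a prior count of 2 where logged. Where a diet had no count, 3 counts over its libraries stood in for 0, which covers the counting error of that diet only. The median log2 fold changes were the same with that gene at its bound. Counts were also simulated with the common dispersion for every gene, and changes were set only in genes with higher counts. On these (23072 genes, MA against LA) the procedure recovered 0.0% of genes changed by a log2 fold of 1, 64.2% at 2 and 98.5% at 3.

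The members were found by gene description, and the members, lists and rules were chosen with earlier results of these data known. Named genes were the 8 of smallest p in each comparison, the 5 highest and 3 lowest by FPKM, the 3 copy pairs with the most unequal fold change and the 3 with the most unequal level, the 3 of widest range, and up to 3 of smallest p per comparison from the other lists. The second copy of S7, S21, L54 and the gene beside S11 were named after their values were seen. Positions were equal to those of RefSeq for all 140. Alternatives were RLE factors, total counts, no filter, the replicate number as a block, a minimum of 10 counts per library, DESeq2 1.42.0, limma-trend (limma 3.58.1) on log2(FPKM + 1) and log2(FPKM + 0.1), only the groups compared, summed copies, a log2 fold change of 2 or more in size, and leaving out each library or both LA1 and HA2.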

Additional observations from a re-analysis of the deposited data

How the results depend on the processing

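No member was called in the 3 comparisons or among the 3 diets by edgeR, and that held with RLE factors, total counts, at least 10 counts in every library, limma-trend at both pseudocounts, summed copies, and each library left out in turn (0 to 0 calls). Fitting only the groups compared also gave 0 in the 3 comparisons and was not run among the 3 diets. Asking for a log2 fold change of 2 or more in size only takes a part of the main calls. Its 0 in the 3 comparisons was thus fixed in advance, and it was not run among the 3 diets either. In MA against LA, DESeq2 called 2 members, where it called 1.84% of all genes. No filter and leaving out both LA1 and HA2 called 1 member each, the same S7 gene (LOC113067805). Each of these fits called 542 genes of the whole table, against 20 in the main fit. Leaving out LA1 and HA2 kept MA2, whose mapped share was close to theirs. Among the 3 diets DESeq2 called 1 member, where it called 2.27% of all genes. The median log2 fold change in MA against LA was 0.22 with total counts, 0.23 with limma-trend on log2(FPKM + 0.1), 0.23 without LA1 and HA2, and 0.05 to 0.23 with a library left out. In HA against LA it was 0.21 with total counts, 0.14 and 0.20 with limma-trend at pseudocounts of 1 and 0.1, and 0.04 to 0.14 with a library left out. In HA against MA it was 0.02 with no filter and −0.07 to 0.00 with a library left out. The number of members past an unadjusted p of 0.05 ran from 5 to 14, 0 to 10 and 4 to 14 with a library left out. The share of all genes past that p in these fits is not given here. Calls over all genes at an adjusted p of 0.05 moved too. That is another threshold, so whether these ranges are particular to the members was not tested. In MA against LA, edgeR called 293 of all genes without LA1 and 0 without MA3. In HA against LA it called 175 without LA1, and in HA against MA 75 without MA1 and 0 without HA3. None of 28 results for named members changed direction in 518 alternatives, which did not include summed copies, and 4 of the 518 passed the threshold. Most of these members were picked for small p or wide differences in the same counts that each alternative refitted. An unchanged direction was therefore likely in advance. With copies summed, some proteins lay on the other side of 0 from a named copy. In HA against MA, summed L11 was at 0.5, against −1.07 for its copy LOC113114215. Summed S18c was at 0.09 there, against −0.71 for its copy LOC113064199. The replicate numbers are shared between diets, but nothing says that they mark a tank or a day, and residuals of the same number had correlations of −0.60 to 0.27, with 5 of 9 libraries closest to their own number. With the replicate block edgeR called 0 members in each comparison, and medians were 0.10, 0.03 and −0.07. It called 4 genes of the whole table in MA against LA and 0 in HA against MA, in place of 20 and 13. On counts simulated for all genes tested with a common dispersion for every gene, 0 of 67 genes changed by a log2 fold of 1 passed in MA against LA. The spread of real members differs from gene to gene, so that share need not be theirs. The absence of calls is not read as a limit on differences of that size.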
